A study of Homo sapiens with 12 samples.

Results

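The genes described are 10 that supply cysteine or turn it into glutathione and use it: SLC7A11 and SLC3A2 for cystine uptake, CTH and CBS for transsulfuration, GCLC, GCLM and GSS for glutathione synthesis, GSR for its recycling, GPX4 as its user and CHAC1 as its degrader. They were chosen by name with earlier results of these data known, so counts among them describe the list and do not test it. Each is measured by at least 1 probe set that names that gene alone, with 15 such probe sets for the 10 genes out of 22215 on the array. The main value of a gene comes from its brightest probe set, as for all 11963 genes tested. The arrays come from RCC4, a human renal cell carcinoma line whose own VHL is not functional. RCC4 cells with VHL reintroduced (VHL) or with the vector only (Vec) were kept for 6 h in cystine-deprived DMEM with dialysed serum or in full DMEM, and each of the 4 groups has 3 arrays (VHL deprived, VHL control, Vec deprived and Vec control). The labels call the 3 biological replicates without naming separate cultures, so p-values measure only the spread between these arrays. The labels name dialysed serum for the deprived medium and plain fetal bovine serum for the control medium, so loss of cystine and the change of serum cannot be told apart. Whether each line is 1 clone or a pool is not given in the sources used here.

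Cells take up cystine through system xc-, in which SLC7A11 is the transporter and SLC3A2 the heavy chain that brings it to the membrane, and reduce it to cysteine. Cysteine can also be made from methionine through transsulfuration, where CBS forms cystathionine and CTH cleaves it. Glutamate-cysteine ligase, made of the catalytic subunit GCLC and the modifier GCLM, joins cysteine to glutamate, and GSS adds glycine to give glutathione. GSR reduces oxidised glutathione with NADPH, GPX4 uses glutathione to reduce lipid hydroperoxides and holds back ferroptosis, and CHAC1 cleaves glutathione inside the cell. ATF4, a transcription factor translated when amino acids run short, is known to act through a composite element shared with C/EBP factors in promoters such as that of CHAC1. NRF2 acts through antioxidant response elements, for example near GCLM.

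Promoter sequence is shown for CHAC1 and CTH, which had the largest rises of the 10 genes, and short stretches for SLC3A2, CBS and GCLM that hold a motif of ATF4 or NRF2. RefSeq promoter windows (GRCh38.p14, 250 bases before and 50 from the annotated start) were available for 7 of the 10 genes; the promoters of SLC7A11, GSS and GSR were not analysed here. The composite letters TGATGNAA and the antioxidant letters TGACNNNGC were searched on both strands, and matches are in capitals. The composite letters occur in 3.62% and the antioxidant letters in 13.3% of all 35116 windows. The 250 bases before the start of CHAC1 (chr15:40953221-40953470, plus strand) hold 1 composite match on the reverse strand, at positions -209 to -202 from the start, and CTH (chr1:70411018-70411267, plus strand) has neither motif.
CHAC1: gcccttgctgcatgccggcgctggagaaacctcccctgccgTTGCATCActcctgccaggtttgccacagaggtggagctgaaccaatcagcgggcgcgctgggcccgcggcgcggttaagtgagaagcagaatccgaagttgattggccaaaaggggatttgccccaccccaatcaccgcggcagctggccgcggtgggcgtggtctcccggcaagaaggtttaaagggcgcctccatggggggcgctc
CTH: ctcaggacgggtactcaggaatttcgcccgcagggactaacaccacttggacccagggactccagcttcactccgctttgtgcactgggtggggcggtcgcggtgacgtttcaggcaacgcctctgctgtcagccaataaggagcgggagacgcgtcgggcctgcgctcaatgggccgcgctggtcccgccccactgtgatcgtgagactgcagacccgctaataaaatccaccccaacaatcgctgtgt

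Of the 3 annotated starts of SLC3A2, 1 has both motifs, with the antioxidant letters before the start (chr11:62881652-62881681, plus strand) and the composite letters after it, on the reverse strand (chr11:62881719-62881748). GCLM holds the antioxidant letters at positions -34 to -26 (chr1:93909445-93909474, minus strand), and 1 of the 3 starts of CBS holds them at -83 to -75 (chr21:43076441-43076470, minus strand). The windows of GCLC and GPX4 hold neither. A match is a description of letters and not a measured binding site.
SLC3A2 antioxidant: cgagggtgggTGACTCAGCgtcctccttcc
SLC3A2 composite: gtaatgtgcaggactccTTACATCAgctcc
GCLM antioxidant: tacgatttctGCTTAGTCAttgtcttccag
CBS antioxidant: ccggctctggGCGCGGTCAcgcggggcgct

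Array medians ran from 7.12 to 7.18 on the log2 scale. Of 8 markers listed for the labelled renal and epithelial lineage, 7 lay above the median gene, PAX8, PAX2, KRT8, KRT18, KRT19, CDH2 and VIM. CDH2 and VIM are not particular to epithelium, and LHX1 lay at the 29.2nd percentile. Of 9 measured markers of blood, endothelium and fibroblasts, 8 lay at or under the 28.1st percentile and COL1A1 at the 52.9th. The summed linear level of these 9 was 624 to 668 in VHL deprived, 605 to 647 in VHL control, 634 to 641 in Vec deprived and 610 to 625 in Vec control arrays. VHL itself has 1 dim probe set that differed by 0.14 ± 0.05 (standard error) between VHL and Vec cells in control medium (limma adjusted p = 0.0532). Under deprivation its difference was -0.05 ± 0.05 (0.475). The value in control medium was called with median centring (0.0237), averaged over probe sets (0.0445) and with the replicate block (0.041). EGLN3, a prolyl hydroxylase induced by hypoxia-inducible factors, averaged 5.47 ± 0.10 in VHL control and 8.71 ± 0.04 in Vec control arrays (log2, SD, n = 3 each), a difference of -3.24 ± 0.06. The glucose transporter SLC2A1 and the growth factor VEGFA, both known targets of these factors, differed by -2.28 ± 0.06 and -1.34 ± 0.10 in control medium. In deprived medium the differences were -3.11 ± 0.06 for EGLN3, -2.08 ± 0.06 for SLC2A1 and -0.86 ± 0.10 for VEGFA. Where on VHL its probe set lies is not given in the sources used here, so it does not test the reintroduction.

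The uptake pair, CTH and the glutathione degrader CHAC1 were higher in deprived than in control medium in both lines. CBS rose and GCLM fell in VHL cells, and neither was called in Vec cells, where the difference between the lines was not called for either. The other 4 genes, GCLC, GSS, GSR and GPX4, were not called in either line. In VHL cells 5 of the 10 genes rose and GCLM fell, against 6.16% higher and 5.48% lower among all 11963 genes. In Vec cells 4 of the 10 rose and none fell, against 2.11% higher and 2.06% lower among all genes. Counted in either direction, 11.6% of all genes were called in VHL cells and 4.18% in Vec cells. In these bulk samples fewer cells of a kind and less RNA per cell cannot be told apart. A gene is called here when its two-sided p from limma, adjusted over all genes by the Benjamini-Hochberg method, is under 0.05. The median change of the 10 genes was 0.41 in VHL cells and 0.06 in Vec cells, against 0.01 for all genes in each line. Groups did not overlap for 9 of the 10 genes in VHL cells, against 30.6% of all genes, and for 4 of the 10 in Vec cells, against 22.7%.

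**Figure D1:**
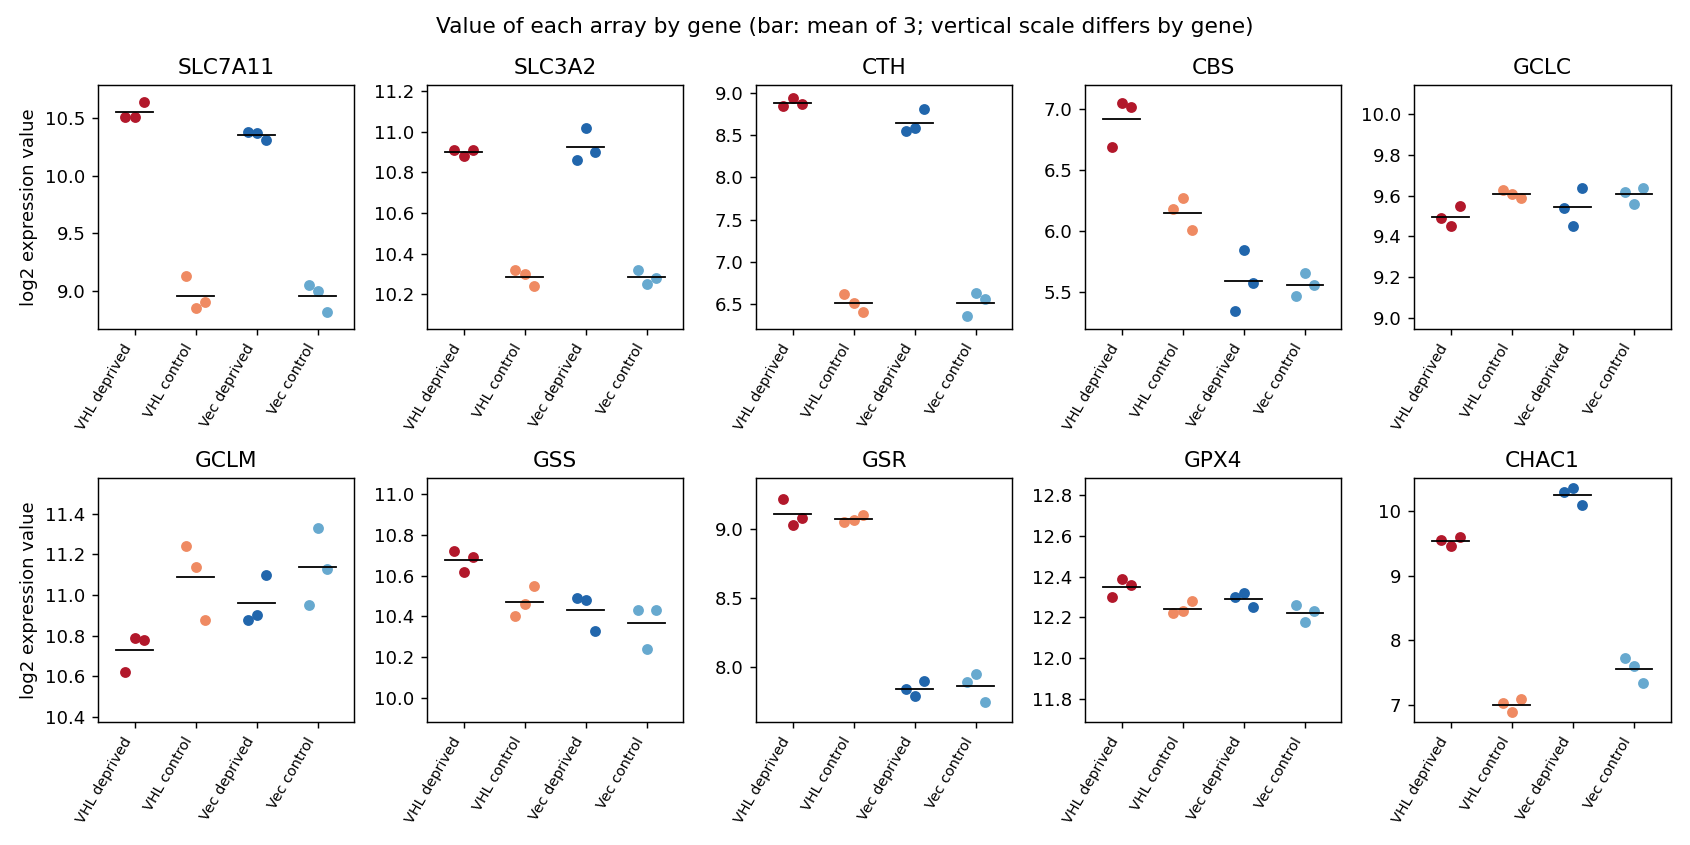
Each point is the log2 expression value of 1 array, with the mean of the 3 arrays of a group as a bar, for VHL deprived, VHL control, Vec deprived and Vec control cells; the vertical scale differs by gene. SLC7A11, SLC3A2, CTH and CHAC1 are higher in deprived than in control medium in both lines without overlap, GSR separates by line and not by medium, and CBS is highest in VHL deprived arrays.

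SLC7A11, the cystine transporter, had log2 values of 10.51, 10.51 and 10.64 in VHL deprived arrays, against 9.13, 8.85 and 8.90 in VHL control arrays. In Vec cells it had 10.38, 10.37 and 10.31 in deprived medium, against 9.05, 9.0 and 8.82 in control medium. Every deprived array lay above every control array by more than 1 unit. The rise was 1.59 ± 0.08 in VHL cells (3.02-fold, limma adjusted p = 3.79e-08) and 1.40 ± 0.08 in Vec cells (2.64-fold, 2.67e-07), with the standard error from limma after each ±. Among all genes the rise ranked 7th in VHL cells and 5th in Vec cells.

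SLC3A2, the heavy chain that SLC7A11 shares with other amino acid exchangers, moved by less than its partner. Its log2 values were 10.91, 10.88 and 10.91 in VHL deprived arrays, against 10.32, 10.30 and 10.24 in VHL control arrays. In Vec cells they were 10.86, 11.02 and 10.90 in deprived medium, against 10.32, 10.25 and 10.28 in control medium. The deprived and control arrays did not overlap in either line, and the values of VHL and Vec cells overlapped in each medium. SLC3A2 rose 1.53-fold in VHL cells (0.61 ± 0.05, limma adjusted p = 7.23e-06) and 1.56-fold in Vec cells (0.64 ± 0.05, limma adjusted p = 8.69e-06).

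CTH, which releases cysteine from cystathionine, had values of 8.85, 8.95 and 8.87 in VHL deprived arrays, against 6.62, 6.51 and 6.40 in VHL control arrays. In Vec cells the values were 8.55, 8.59 and 8.81 in deprived medium, against 6.35, 6.63 and 6.56 in control medium. The control arrays of both lines overlapped, and all deprived arrays were above them by more than 1 unit. CTH rose 5.20-fold in VHL cells (2.38 ± 0.09, limma adjusted p = 2.08e-09) and 4.41-fold in Vec cells (2.14 ± 0.09, limma adjusted p = 1.05e-08), and ranked 3rd of all genes in VHL cells and 2nd in Vec cells.

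CBS, the enzyme before CTH in transsulfuration, had values of 6.69, 7.05 and 7.02 in VHL deprived arrays, against 6.18, 6.27 and 6.01 in VHL control arrays. In Vec cells the values were 5.35, 5.85 and 5.58 in deprived medium, against 5.47, 5.66 and 5.56 in control medium. The VHL groups were apart, with every VHL array above every Vec array, while the Vec groups overlapped. CBS rose 1.70-fold in VHL cells (0.77 ± 0.12, limma adjusted p = 0.0017) and gave 0.03 ± 0.12 in Vec cells (95% interval -0.23 to 0.30, limma adjusted p = 0.933). The gene is dim, at the 26.7th percentile of mean level over all genes.

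Of the genes of glutathione synthesis, GCLC, the catalytic subunit of the ligase, had 9.49, 9.45 and 9.55 in VHL deprived arrays, against 9.63, 9.61 and 9.59 in VHL control arrays. In Vec cells it had 9.54, 9.45 and 9.64 in deprived medium, against 9.62, 9.56 and 9.64 in control medium. The VHL groups did not overlap and the Vec groups did, with changes of -0.11 ± 0.05 in VHL cells (limma adjusted p = 0.195) and -0.06 ± 0.05 in Vec cells (limma adjusted p = 0.641). The 95% intervals of these changes ended at 0.00 and 0.05, so a rise like that of SLC3A2 lies outside both.

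GCLM, the modifier subunit, had 10.62, 10.79 and 10.78 in VHL deprived arrays, against 11.24, 11.14 and 10.88 in VHL control arrays. In Vec cells the values were 10.88, 10.90 and 11.10 in deprived medium, against 10.95, 11.33 and 11.13 in control medium. The VHL groups were apart by less than their own spread, and the Vec groups overlapped. GCLM fell by 0.36 on the log2 scale in VHL cells (standard error 0.11, limma adjusted p = 0.0489) and gave -0.17 ± 0.11 in Vec cells (limma adjusted p = 0.464). The call in VHL cells was lost under 10 of 15 alternatives, among them the omission of any 1 VHL array except control replicate 3, at adjusted p-values up to 0.179 and changes between -0.28 and -0.39 for those arrays.

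GSS, glutathione synthetase, had 10.72, 10.62 and 10.69 in VHL deprived arrays, against 10.40, 10.46 and 10.55 in VHL control arrays. In Vec cells it had 10.49, 10.48 and 10.33 in deprived medium, against 10.43, 10.24 and 10.43 in control medium. The change was 0.21 ± 0.07 in VHL cells (limma adjusted p = 0.0658) and 0.06 ± 0.07 in Vec cells (limma adjusted p = 0.715), neither of which was called. In VHL cells GSS was called with the mean of its probe sets (0.19, limma adjusted p = 0.033), with the dimmest genes left out (0.0461) and with a variance trend (0.0189).

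GSR and GPX4 were not called on deprivation in either line. GSR, the reductase of oxidised glutathione, changed by 0.04 in VHL cells (95% interval -0.10 to 0.17) and by -0.02 in Vec cells (-0.15 to 0.12). GPX4, the lipid hydroperoxidase, had 12.30, 12.39 and 12.36 in VHL deprived arrays, against 12.22, 12.23 and 12.28 in VHL control arrays, and 12.30, 12.32 and 12.25 in Vec deprived arrays, against 12.26, 12.18 and 12.23 in Vec control arrays. Its change was 0.11 ± 0.05 in VHL cells (limma adjusted p = 0.147) and 0.06 ± 0.05 in Vec cells (limma adjusted p = 0.537). With a variance trend GPX4 was called in VHL cells (limma adjusted p = 0.0441). A change in GPX4 of more than 0.21 in VHL cells or 0.16 in Vec cells lies outside the 95% intervals.

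CHAC1, the glutathione-cleaving enzyme, had 9.54, 9.45 and 9.59 in VHL deprived arrays, against 7.04, 6.89 and 7.09 in VHL control arrays. In Vec cells it had 10.29, 10.35 and 10.08 in deprived medium, against 7.73, 7.60 and 7.35 in control medium. Every group was apart from every other, with Vec above VHL in each medium. The rise ranked first of all genes in both lines, 2.52 ± 0.10 in VHL cells (limma adjusted p = 3.38e-09) and 2.68 ± 0.10 in Vec cells (limma adjusted p = 4.15e-09). Of the 7 genes with a window, CHAC1 has the composite letters before an annotated start and SLC3A2 has them after one. CTH, which also rose, has neither motif, and whether the letters bear on the rises was not tested.

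**Figure D2:**
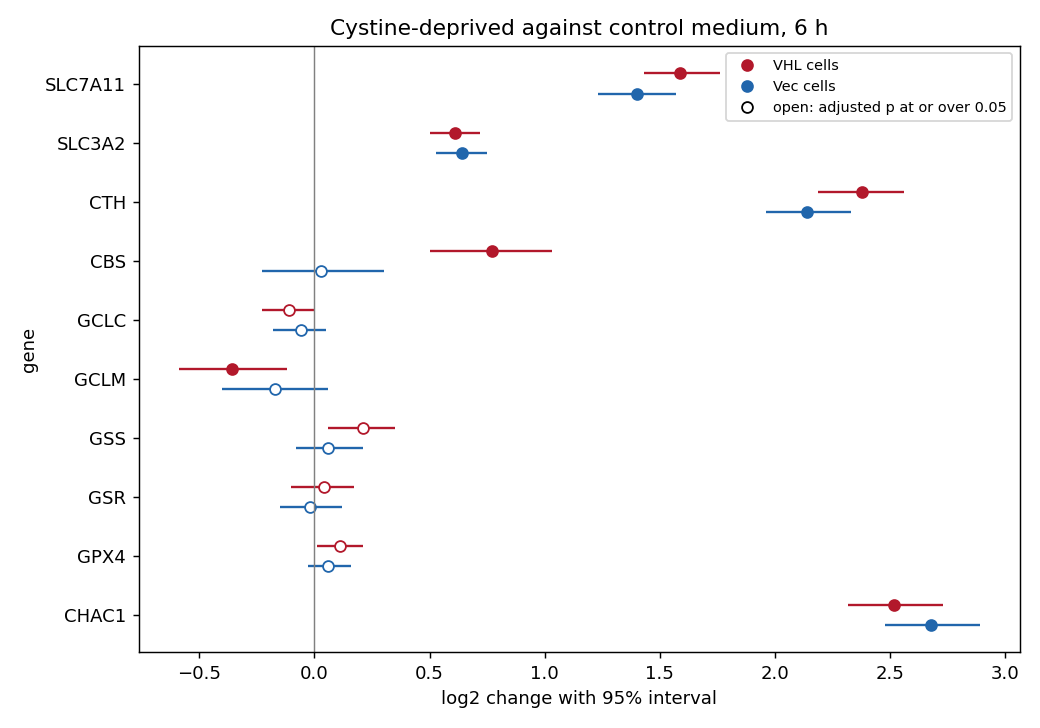
Points are log2 changes, deprived against control medium, with 95% intervals from the fit over 12 arrays, for VHL cells above Vec cells in each gene; open points have an adjusted p at or over 0.05. CHAC1, CTH, SLC7A11 and SLC3A2 are right of 0 in both lines, CBS in VHL cells (0.77) but not Vec cells (0.03), and the intervals of GSR include 0 in both.

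Where a gene has several probe sets, the called changes on deprivation had the same direction in each and differed in size. SLC7A11 has 3 probe sets. The second brightest, 217678_at, rose by 1.37 ± 0.12 in VHL cells (limma adjusted p = 1.34e-05 over all probe sets) and 1.47 ± 0.12 in Vec cells (1.58e-05). The dimmest, 207528_s_at, averaged 5.83 ± 0.07 in VHL control and 5.71 ± 0.25 in Vec control arrays (log2, SD, n = 3 each) and rose by only 0.68 ± 0.10 in VHL cells and 0.49 ± 0.10 in Vec cells. The second CTH probe set, 206085_s_at, rose by 1.70 ± 0.08 in VHL cells and 1.57 ± 0.08 in Vec cells, less than the main one. The second GCLC probe set, 202922_at, gave -0.21 ± 0.07 in VHL cells (limma adjusted p = 0.0724) and -0.04 ± 0.07 in Vec cells (0.863). The second GSS probe set, 211630_s_at, rose by 0.17 ± 0.05 in VHL cells (limma adjusted p = 0.0497) and gave 0.13 ± 0.05 in Vec cells (0.216).

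**Figure D3:**
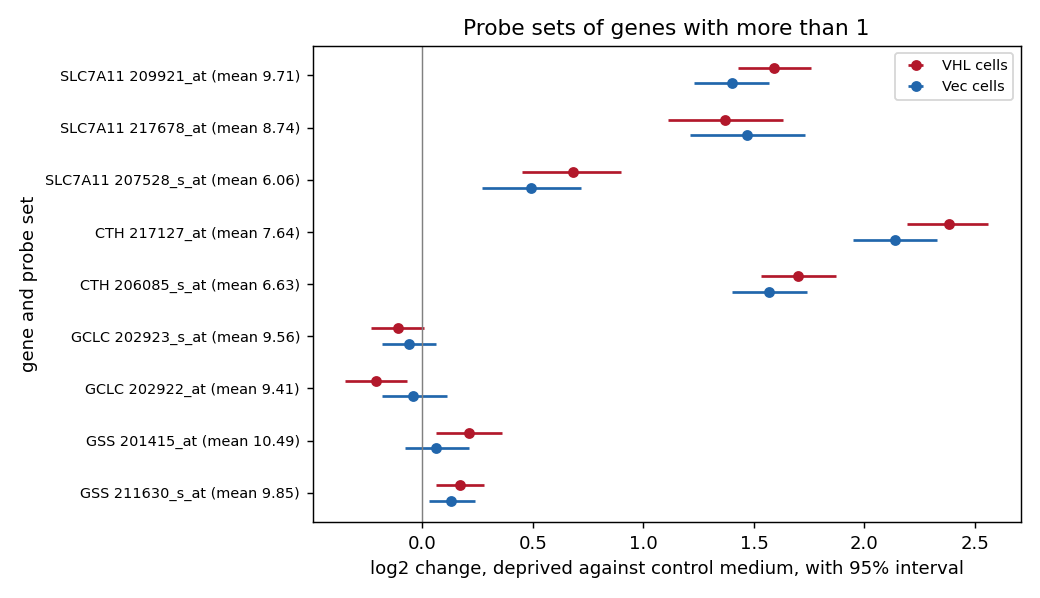
Points are log2 changes, deprived against control medium, with 95% intervals, for each probe set of the 4 genes with more than 1, VHL cells above Vec cells; the mean log2 value over 12 arrays stands in brackets. The dimmest SLC7A11 probe set (mean 6.06) changes by 0.68 and 0.49, against 1.59 and 1.40 for the brightest.

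Whether the lines responded differently was tested as the change in VHL cells minus the change in Vec cells. None of the 10 genes was called in this difference by limma, against 0.134% of all genes. At an unadjusted p under 0.05 it was 1 of 10, CBS, against 9.83% of all genes, so that count is near the background. For CBS the difference was 0.73 ± 0.17 (95% interval 0.36 to 1.11), with a limma adjusted p of 0.195. Over the 19 alternatives that kept a CBS value the difference stayed between 0.61 and 0.86, with adjusted p-values from 0.0652 to 0.385. CTH gave 0.24 ± 0.12, SLC7A11 0.19 ± 0.11 and CHAC1 -0.16 ± 0.14, with 95% intervals of -0.03 to 0.50, -0.04 to 0.43 and -0.45 to 0.14. For SLC3A2 the interval of the difference ran from -0.18 to 0.13, for GSR from -0.14 to 0.25 and for GPX4 from -0.10 to 0.18. The genes GCLC, GCLM and GSS gave -0.05, -0.18 and 0.14, and their intervals included 0.

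The lines also differed in a few of these genes without deprivation, at the same 6 h. In control medium the main probe sets of GSR and CBS were higher and that of CHAC1 lower in VHL than in Vec cells. Those of the other 7 genes were not called. Thus 3 of 10 were called, where 46.1% of all genes were called between the lines in control medium, 23.1% higher and 23.0% lower. Groups did not overlap for the same 3 genes, against 53.2% of all genes. GSR had 9.05, 9.07 and 9.10 in VHL control arrays, against 7.89, 7.95 and 7.75 in Vec control arrays. In deprived medium it had 9.22, 9.03 and 9.08 in VHL arrays, against 7.84, 7.79 and 7.90 in Vec arrays. All 6 VHL arrays lay over 1 unit above all 6 Vec arrays. GSR was 2.32-fold higher in VHL cells in control medium (1.21 ± 0.06, limma adjusted p = 4.00e-09) and 2.41-fold higher in deprived medium (1.27 ± 0.06, limma adjusted p = 2.67e-09).

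CBS was 1.51-fold higher in VHL than in Vec cells in control medium (0.59 ± 0.12, limma adjusted p = 0.00117) and 2.51-fold higher in deprived medium (1.33 ± 0.12, 9.86e-07). These CBS folds are taken against the dim Vec values given above. CHAC1 was lower in VHL cells, at -0.55 ± 0.10 (limma adjusted p = 2.93e-04) in control medium and -0.71 ± 0.10 (3.25e-05) in deprived medium. Expressed the other way, Vec cells had 1.47-fold the VHL level of CHAC1 in control medium and 1.64-fold in deprived medium. These 3 genes were called in both media under each alternative run that kept them. By main probe sets the VHL to Vec difference in control medium was 0.00 for SLC7A11, SLC3A2, CTH and GCLC, with 95% intervals inside -0.19 to 0.18. Other probe sets of these genes were not called but ranged wider. The second GCLC probe set gave -0.17 (95% interval -0.31 to -0.02) and the second of CTH 0.14 (-0.04 to 0.31). For SLC7A11, 207528_s_at gave 0.13 (-0.10 to 0.35) and 217678_at -0.01 (-0.27 to 0.25).

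In deprived medium 5 of the 10 genes were called between the lines, 4 higher and 1 lower in VHL cells, against 24.2% higher and 23.0% lower among all genes and 47.2% called in all, so the count is near the background. Groups did not overlap for 7 of the 10, against 54.2% of all genes. Besides GSR, CBS and CHAC1 these were GSS, at 0.25 ± 0.07 (limma adjusted p = 0.00817), and CTH, at 0.24 ± 0.09 (0.0376). The CTH call was lost without any 1 of 5 of the 6 deprived arrays (adjusted p between 0.051 and 0.14). Vec deprived replicate 3 was the exception. Median centring also removed the call (0.051). The second CTH probe set, 206085_s_at, was called higher in VHL cells too, at 0.27 ± 0.08 (limma adjusted p = 0.0146 over all probe sets). SLC7A11 gave 0.20 ± 0.08 (limma adjusted p = 0.0522) with all VHL arrays above all Vec arrays, and GCLM -0.23 ± 0.11 (0.0957). SLC7A11 was called at 0.22 with quantile normalization (0.0274), and also with the dimmest genes left out (0.0399), with a variance trend (0.0222) and with only the compared groups fitted (0.0186). The probe sets of SLC7A11 did not agree here, since 207528_s_at gave 0.31 ± 0.10 (limma adjusted p = 0.0261) and 217678_at -0.11 ± 0.12 (0.536). With only the compared groups fitted GCLM was also called (0.0377). The second GCLC probe set was lower in VHL cells, at -0.34 ± 0.07 (limma adjusted p = 8.64e-04), while the main one gave -0.05 ± 0.05 (0.472). The mean of the GCLC probe sets was called at -0.20 (0.00500). In control medium the mean of the GSS probe sets was called at 0.14 (0.0366). The second GSS probe set was called higher in VHL cells in both media. It gave 0.18 ± 0.05 in control medium (limma adjusted p = 0.00901 over all probe sets) and 0.22 ± 0.05 in deprived medium (0.00246).

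**Figure D4:**
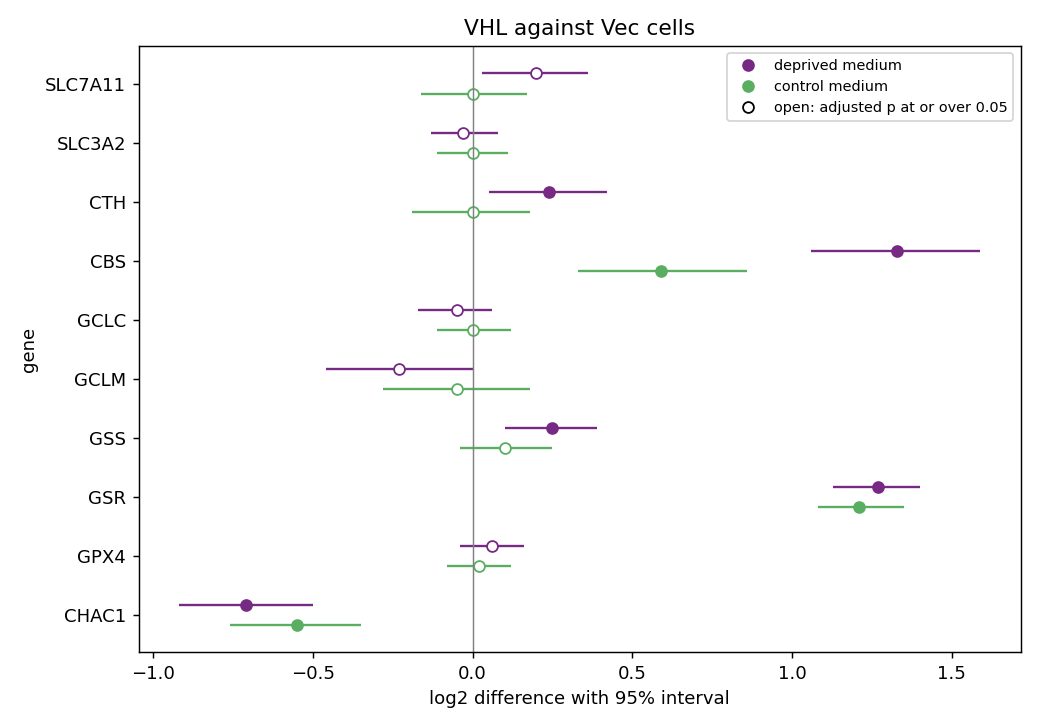
Points are log2 differences, VHL against Vec cells, with 95% intervals, in deprived medium above control medium for each gene; open points have an adjusted p at or over 0.05. GSR and CBS are right of 0 and CHAC1 left of 0 in both media, and the other 7 genes lie within 0.25 of 0.

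A list of 62 other genes of cysteine and glutathione metabolism had 53 measured members. In VHL cells 7 rose and 1 fell on deprivation, and in Vec cells 3 rose and none fell, with median changes of 0.04 and 0.05 against 0.01 for all genes. In the main fit the called share was 15.1% in VHL cells, against 11.6% of all genes. In Vec cells it was 5.66%, against 4.18% of all genes, and both were near the background. With a variance trend 13 of the 53 rose and 2 fell in VHL cells, where 14.9% of all genes were called. That share lay further above the background than in the main fit. In Vec cells 5 rose and none fell with this trend, where 6.09% of all genes were called. With names in _x_at and _s_at dropped, 4 rose and 1 fell in VHL cells, where 9.21% of 8369 genes were called. SLC1A4, an exchanger of small neutral amino acids, rose by 1.09 ± 0.05 in VHL cells (limma adjusted p = 1.35e-08) and 0.95 ± 0.05 in Vec cells (1.28e-07). GOT1, the cytosolic aspartate aminotransferase, which can also convert cysteine sulfinate, rose by 0.58 ± 0.06 in VHL cells and 0.89 ± 0.06 in Vec cells, and its difference between the lines was not called (-0.31 ± 0.08, limma adjusted p = 0.232). SLC1A5, a glutamine carrier, rose by 0.49 ± 0.06 in VHL cells and 0.31 ± 0.06 in Vec cells.

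ATF4 averaged 12.67 ± 0.01 in VHL deprived and 12.23 ± 0.01 in VHL control arrays, and 13.06 ± 0.01 in Vec deprived and 12.95 ± 0.03 in Vec control arrays (log2, SD, n = 3 each). It rose by 0.44 ± 0.04 in VHL cells (limma adjusted p = 1.58e-05) and gave 0.11 ± 0.04 in Vec cells (0.170, and 0.0257 with a variance trend). The difference between the lines, 0.33 ± 0.06, was called (limma adjusted p = 0.0416) but not without any 1 of the 12 arrays (0.0682 to 0.126). Called in VHL cells and not in Vec cells were also OPLAH, which opens 5-oxoproline to glutamate, at 0.29, GSTZ1, a glutathione transferase of tyrosine breakdown, at 0.43, HAGH, the hydrolase of the glyoxalase path, at 0.19, and the faller SUOX, sulfite oxidase, at -0.28. The Vec values of these 4 were 0.15, 0.25, 0.09 and -0.20, and their differences between lines were not called (limma adjusted p between 0.580 and 0.816). The calls of HAGH and SUOX in VHL cells were lost without any 1 of 5 and 4 of the 6 VHL arrays, that of GSTZ1 without VHL control replicate 1 (adjusted p = 0.0514), and that of SLC1A5 in Vec cells without any 1 of 3 Vec arrays (0.0525 to 0.0616).

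**Figure D5:**
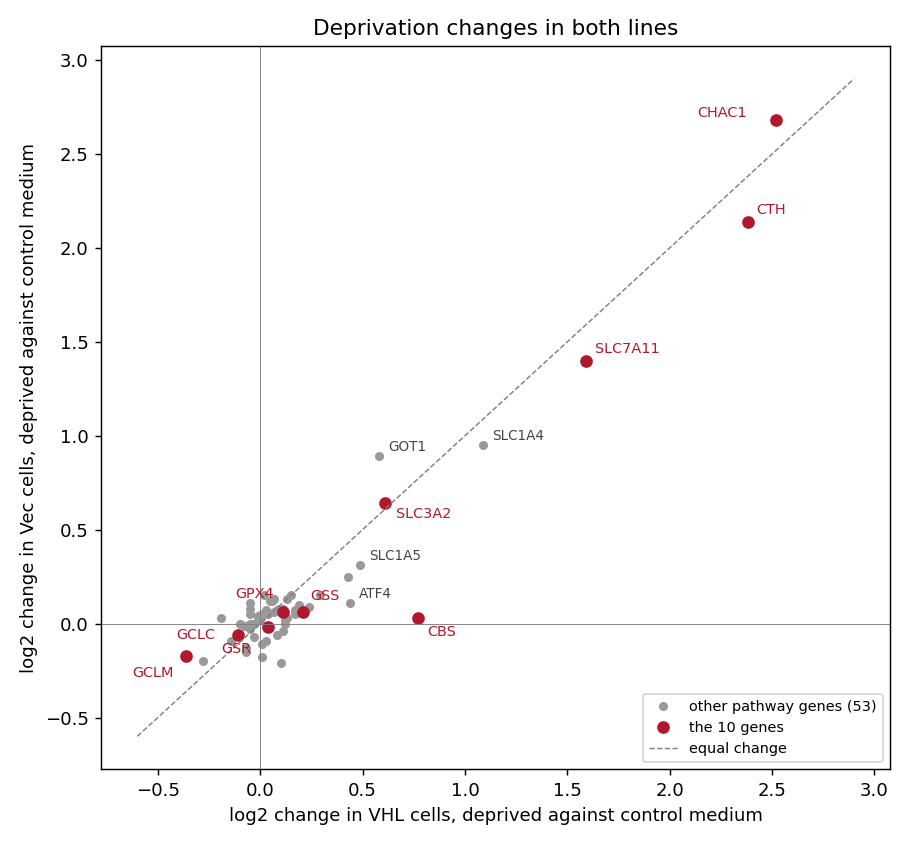
Each point is a gene, with its log2 change on deprivation in VHL cells on the horizontal axis and in Vec cells on the vertical axis; red points are the 10 genes, grey points the 53 others measured, and the dashed line marks equal change. CHAC1, CTH, SLC7A11, SLC3A2 and SLC1A4 lie along the line away from 0, CBS lies at 0.77 and 0.03, and most grey points lie near 0.

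Genes outside the 10 with the most similar course were taken as those with the smallest root mean square difference of values over the 12 arrays, after each gene was centred on its own mean. For SLC7A11 these were ASNS, asparagine synthetase, at 0.13 log2 units, KLF4, a transcription factor, at 0.19 and DDIT3, the stress factor CHOP, at 0.23. For CTH they were INHBE, an inhibin subunit, at 0.22, ASNS at 0.39 and KLF4 at 0.44. For CHAC1 they were PCK2, the mitochondrial phosphoenolpyruvate carboxykinase, at 0.56, INHBE at 0.61 and ASNS at 0.64. Averaged over probe sets, ASNS lay at 0.21 from SLC7A11 and at 0.25 from CTH.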

How the data were processed

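Total RNA was labelled with biotin and hybridised to 12 single-colour arrays, per the labels; probe set names are those of Affymetrix arrays. The deposited values are log2 expression values per probe set; their scale was read from the values, and how the authors summarised and normalised them is not given in the sources used here. They were used without further scaling, filter or detection calls. Of 22215 probe sets, 19064 name 1 gene, 1043 several and 2108 none. For 19052 the gene was found in RefSeq and its current symbol was used, whether or not it had changed. Group means were fitted over the 12 arrays in limma 3.58.1 (R 4.3.3), with 8 residual and 12.7 moderated degrees of freedom, for 5 comparisons, which share arrays in part. The procedure was run on simulated data with independent noise and shifts added to the Vec deprived group only. That simulation had no differences between the lines, so it does not cover all features of these data. Array number limits the precision.

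Named are the 10 genes, 4 genes that check the VHL label, up to 8 other pathway genes called in a deprivation comparison or its difference, and 3 genes most like each of SLC7A11, CTH and CHAC1. The genes and lists were chosen with earlier results of these data known. The main fit did not pair arrays by replicate number. Residuals of arrays of equal number correlated between -0.268 and 0.235 (median 0.0526, 18 pairs). Those of arrays of other number correlated between -0.35 and 0.291 (median -0.0179, 36 pairs). Of 12 arrays, 5 were closest to their own number, and these values do not settle whether the numbers pair the arrays. Alternatives were quantile normalization, median centring, a filter on genes under the lower quartile of mean level, other choices of probe set, a variance trend, a fit of the compared groups, a replicate block and leaving out each array.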

Additional observations from a re-analysis of the deposited data

Results flagged for a closer look

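No gene of the 10 had a called difference between the responses of VHL and Vec cells. Among the other genes named, 4 did, each with a larger rise in VHL cells. Over all 11963 genes 16 were called in this difference (0.134%). Of these, 15 had a higher and 1 a lower change in VHL cells, so the shared direction is not particular to the named genes. INHBE rose by 2.51 in VHL cells and 1.71 in Vec cells, a difference of 0.79 ± 0.10 (limma adjusted p = 0.00498). PCK2 rose by 2.0 in VHL cells and 1.31 in Vec cells, a difference of 0.70 ± 0.09 (limma adjusted p = 0.00695). DDIT3 rose by 1.54 in VHL cells and 0.93 in Vec cells, a difference of 0.60 ± 0.08 (limma adjusted p = 0.0100). ATF4 changed by 0.44 in VHL cells and 0.11 in Vec cells, a difference of 0.33 ± 0.06 (limma adjusted p = 0.0416). The ATF4 difference was not called without any 1 of the 12 arrays (adjusted p between 0.0682 and 0.126), nor with median centring (0.0828), each probe set on its own (0.0634), probe sets ending in _x_at or _s_at left out (0.0688) or the replicate block (0.0842). The other 3 differences stayed called under every alternative run that kept the gene. ATF4 was also lower in VHL than in Vec cells, by -0.72 ± 0.04 in control medium and -0.39 ± 0.04 in deprived medium.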

How the results depend on the processing

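Over 790 results for the 10 genes under alternatives, 16 calls were lost, 12 were gained and no called value changed sign. The count of the 10 genes called in VHL cells on deprivation was 6, and 3 of 8 measured genes once names in _x_at and _s_at were dropped, which removes SLC3A2 and CBS from the fit and takes the call from GCLM (-0.355, adjusted p = 0.0546). It was 7 with the dimmest genes left out, averaged over probe sets or with a variance trend. Among all genes 18.3%, 10.8% and 14.9% were called in these 3 settings, against 11.6% in the main fit. With names in _x_at and _s_at dropped the share of all genes was 9.21%. Leaving out 1 array at a time gave 4 in Vec cells and 5 to 6 in VHL cells on deprivation, 0 for the difference between lines, and 3 in control and 4 to 5 in deprived medium between lines. In the same order, 2.11% to 2.53%, 6.39% to 10.9%, 0.092% to 0.134%, 42.5% to 44.1% and 43.7% to 45.3% of all genes were called. With the replicate block the counts of the 10 genes were 4, 5, 0, 3 and 5. The shares of all genes were then 3.63%, 11.1%, 0.134%, 46.1% and 47.3%. The block took the call from GCLM in VHL cells (-0.355, adjusted p = 0.0621) and from no other of the 10.

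Uncalled values near 0 changed sign. Between lines in control medium CTH gave 0.012 with quantile normalization, 0.025 with median centring and 0.067 averaged over probe sets. GCLC there gave -0.007 with quantile normalization, -0.084 averaged over probe sets and -0.17 with names in _x_at and _s_at dropped, and GPX4 gave -0.008 with quantile normalization. SLC3A1, given under the other observations, went to -0.167 in control and -0.016 in deprived medium with those names dropped. Leaving out 1 array at a time, CBS in Vec cells on deprivation ranged from -0.093 to 0.156, GSS from -0.001 to 0.117 and GSR from -0.076 to 0.027, and GSR in VHL cells from -0.019 to 0.074. The difference between lines ranged from -0.061 to 0.019 for SLC3A2 and from -0.001 to 0.113 for GSR. Between lines in control medium the ranges were -0.081 to 0.059 for SLC7A11, -0.015 to 0.027 for SLC3A2, -0.084 to 0.06 for CTH, -0.022 to 0.015 for GCLC, -0.14 to 0.055 for GCLM and -0.004 to 0.038 for GPX4, and in deprived medium -0.058 to 0.021 for SLC3A2.

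Over all genes, 500 were called on deprivation in Vec cells, and 233 with names in _x_at and _s_at dropped (8369 genes), 311 with only the compared groups fitted and 253 to 303 without 1 array. In VHL cells 1392 were called, and 771, 835 and 764 to 1302 under the same alternatives. With median centring the VHL calls were 550 higher and 873 lower, against 737 and 655 as deposited; the cause was not tested. The difference between lines had 16 calls, 45 with a variance trend, and 11 with names in _x_at and _s_at dropped. Between lines, dropping those names gave 3427 calls, against 5520, in control and 3505, against 5650, in deprived medium. CBS is dim and the number of arrays limits small changes.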

Other observations

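Among the other pathway genes, 4 with large differences between the lines in control medium are given here, chosen after their values were seen. Other carriers on the list gave smaller values, -0.31 for SLC1A4 and -0.47 for SLC1A5, and CTNS, the lysosomal cystine exporter, gave 0.10 (limma adjusted p = 0.208). SLC1A1, a glutamate transporter that also carries cysteine, averaged 7.12 in VHL control and 10.58 in Vec control arrays, a difference of -3.46 ± 0.08 (limma adjusted p = 1.55e-12), and -3.39 ± 0.08 in deprived medium. Its second probe set gave -0.85 ± 0.10 and -0.82 ± 0.10. GSTO1, a glutathione transferase with thioltransferase activity, differed by -0.94 ± 0.05 in control and -1.10 ± 0.05 in deprived medium, and MGST2, a microsomal glutathione transferase, by 1.99 ± 0.06 and 1.77 ± 0.06.

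SLC3A1, the heavy chain of the cystine transporter of the kidney tubule, averaged 10.15 in VHL control and 7.42 in Vec control arrays, a difference of 2.73 ± 0.09 (limma adjusted p = 7.66e-11). Its second probe set, 205800_at, gave -0.17 ± 0.09 (adjusted p = 0.191 over all probe sets), so the difference rests on 1 probe set. SLC7A9, its light chain, gave 0.02 (limma adjusted p = 0.892). On deprivation none of SLC1A1, GSTO1, SLC3A1 and MGST2 was called in either line (limma adjusted p between 0.0731 and 0.894).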
